A study of Mus musculus with 16 samples.

Results

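The transcriptional response of mouse monocytes to 6 h of culture with interferon-γ (IFN-γ) and CD40 ligand (CD40L) was described across all listed genes. The members of the comparison were the libraries that the titles place at 6 h, 4 stimulated with IFN-γ plus CD40L and 4 without stimulus, which are 8 of the 16 libraries of the series. Both genotypes were pooled. The genotype of the title was a term in the 6 h model, so that its fold changes compare stimulated with unstimulated libraries and not genotypes.

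The monocytes came from C57BL/6 mice that were NFAM1+/+ or NFAM1-/-, the latter carrying a Cas9-made deletion of exons 2 and 3 of Nfam1, an ITAM-bearing receptor of myeloid cells. At 6 h each genotype gave 2 unstimulated and 2 stimulated libraries. Per the labels, stimulated cells were pretreated with IFN-γ at 100 ug/mL for 1 h and then received MegaCD40L, a multimeric form of CD40L, at 1 ug/mL, whereas unstimulated cells received neither agent. The study's methods give another dose of IFN-γ for sequencing, and no comparison here depends on the dose. No library of the series received only IFN-γ or only CD40L, so that the parts of the agents cannot be told apart. The cell type tag names peripheral blood monocytes while the methods describe isolation from bone marrow, and although the study describes several mice of each genotype, no source used here says which library came from which mouse or whether a mouse gave libraries to both groups, so that the adjusted p-values measure only the spread between these samples. Unstimulated libraries are numbered 1 and 2 (NFAM1+/+) and 3 and 4 (NFAM1-/-), stimulated libraries are numbered 26 and 10 (NFAM1+/+) and 11 and 12 (NFAM1-/-), and values per library are given in this order.

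IFN-γ binds a receptor of the chains Ifngr1 and Ifngr2, whose kinases Jak1 and Jak2 activate STAT transcription factors that bind the gamma-activated sequence (GAS) of their targets. Among these targets are interferon regulatory factors (IRFs), which bind the interferon-stimulated response element (ISRE) and carry the response on to genes of antigen presentation and cell-autonomous defence, and inhibitors such as Socs1 that dampen the pathway. CD40, a receptor of the tumor necrosis factor receptor family on monocytes, macrophages, dendritic cells and B cells, signals through TRAF adaptors to the canonical and the noncanonical NF-kB pathways and is known for its part in the activation of antigen-presenting cells by T cells.

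Levels are in CPM, read counts relative to library size as the authors scaled them, and are given as the mean ± SD of 4 libraries, and differences are log2 fold changes ± SE from a limma model. A gene was called where the Benjamini-Hochberg adjusted p was under 0.05 and the fold change at least 2. Genes that no rule stated under the processing selects were named for their role after their values were seen. The 6 h libraries held 48295939 to 88514341 reads on the listed genes, so that 3 reads, the limit that a count of 0 allows, correspond to 0.0261 to 0.0590 CPM, and such limits cover counting error only. Pearson's r of log2 CPM across genes was 0.970 to 0.980 among unstimulated libraries, 0.978 to 0.983 among stimulated libraries and 0.736 to 0.764 between the groups. The deposited scaling differed by stimulus, since the reads of a library over its scaled size lay between 0.756 and 0.775 without stimulus and between 1.24 and 1.32 with it. Scaling each library to the sum of its own reads (own-total scaling) moved the median log2 fold change of all genes from -0.11 to -0.84, while median centring moved it to 0.07 and quantile normalization to -0.22. The medians of the IFN-γ signaling and cholesterol lists are therefore also given relative to the median of all genes.

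Of 13085 genes listed, 12111 reached 1 CPM in 2 or more of the 8 libraries and were tested. At 6 h 2367 genes (19.5%) were called higher and 2433 genes (20.1%) were called lower in stimulated libraries, while 7311 were not called. The rises were larger than the falls. A fold change of 64 or more was reached by 265 of the genes called higher and by 44 of those called lower, and 1653 of the latter lay between 2- and 4-fold. All stimulated libraries lay above all unstimulated ones for 4079 genes (33.7%) and below them for 4894 (40.4%). Only 87 of the called genes had overlapping groups. The genes called higher took at most 14.7% of the summed CPM of each unstimulated library and 51.6 to 53.6% of that of stimulated libraries, whereas the share of the genes called lower went from between 15.5 and 16.4% to between 2.57 and 2.93%. Of the called genes 49.3% were higher under the deposited scaling, 22.6% under own-total scaling, 57.3% with median centring and 46.0% with quantile normalization. Under all 4 scalings 1498 genes were called higher and 1950 were called lower.

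**Figure D1:**
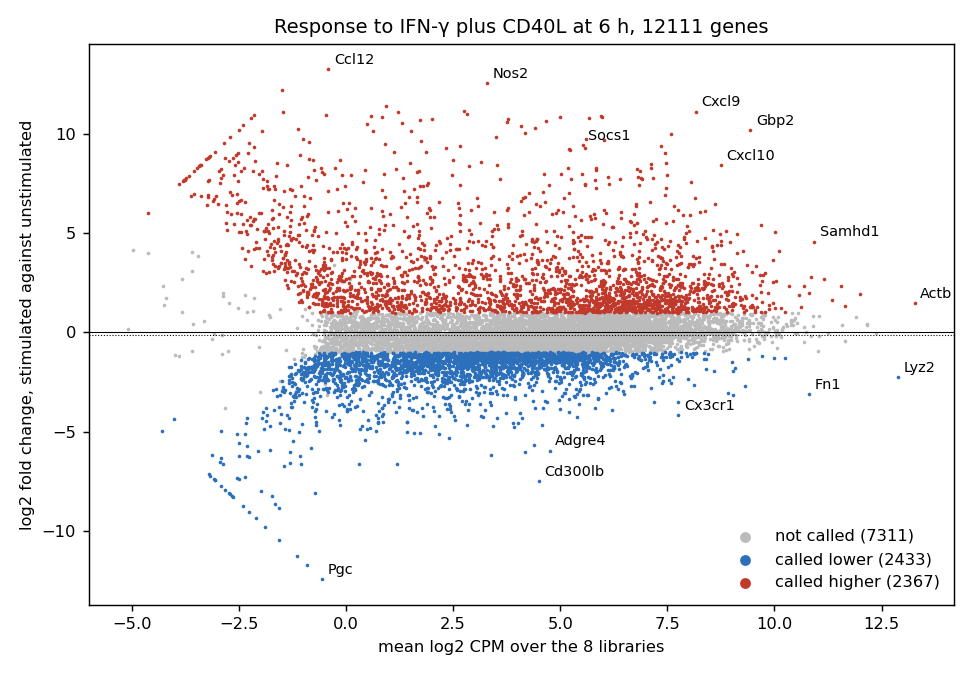
Log2 fold change of stimulated against unstimulated libraries at 6 h (vertical axis) by the mean log2 CPM over the 8 libraries (horizontal axis) for the 12111 genes tested. Red points are the 2367 genes called higher, blue points the 2433 called lower and grey points the 7311 not called, the dotted line is the median of all genes (-0.11), and the largest rises lie farther from 0 than the largest falls apart from genes such as Pgc that had no reads in stimulated libraries.

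The 10 largest rises among genes with a mean of at least 10 CPM were those of Ccl12, Nos2, A630012P03Rik, Gbp11, Gm4951, F830016B08Rik, Cxcl9, Ch25h, Gm11992 and Gm5970, with log2 fold changes from 10.93 to 13.25. Ccl12, a chemokine for CCR2-bearing monocytes, had 2 reads in the 4 unstimulated libraries together and 3402 to 5227 reads in each stimulated library, a ratio of 15212 with a counting interval of 4211 to 125624. Nos2, the inducible nitric oxide synthase, was at 0.244, 0.2, 0.0914 and 0.0568 CPM in unstimulated libraries and at 1465, 699, 561 and 602 CPM in stimulated ones. All stimulated libraries lay far above the unstimulated ones, and library 26 held the highest level (12.57 ± 0.26, adjusted p = 1.58e-11). A630012P03Rik had no read in any unstimulated library, and against the limit of 3 reads per library it was at least 798-fold higher. Ch25h, which makes 25-hydroxycholesterol, went from 0.192 ± 0.122 to 326 ± 19.6 CPM (11.03 ± 0.45). The fold changes of Gbp11 (11.40), F830016B08Rik (11.13) and Gm11992 (10.95) rested on few reads in unstimulated libraries and moved by more than 1.5-fold when a single unstimulated library was left out, to between 10.21 without library 3 and 12.52 without library 1 for Gbp11, to 10.26 without library 2 for F830016B08Rik, and to between 10.04 without library 1 and 12.14 without library 2 for Gm11992.

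The largest gains in mean CPM among called genes, which are gains in the share of reads and not per length of transcript, were those of Gbp2, Cxcl9, Actb, Samhd1 and Cxcl10. Gbp2, a guanylate-binding protein of cell-autonomous defence, was at 25.9, 22.6, 19.7 and 14.5 CPM in unstimulated libraries and at 22790.0, 22797, 24062 and 25443 CPM in stimulated ones. The groups were far apart, with a mean of 23773 ± 1264 CPM in stimulated libraries (10.20 ± 0.13, adjusted p = 1.21e-12). Cxcl9, a ligand of the chemokine receptor CXCR3, was at 10.1, 5.40, 5.82 and 4.39 CPM without stimulus and at 11247, 13741, 15465 and 14450.1 CPM with it (11.12 ± 0.21). Cxcl10, a ligand of the same receptor, was at 27.05, 27.6, 27.5 and 14.5 CPM without stimulus and at 6527, 7914, 8763 and 8907 CPM with it (8.41 ± 0.20). For both chemokines the groups were far apart, and unstimulated library 4 was the lowest. Samhd1, a deoxynucleotide triphosphohydrolase that restricts viruses, went from 401 ± 30.95 to 9455 ± 192 CPM (4.56 ± 0.06). Actb, the cytoplasmic β-actin, went from 5972 ± 283 to 16429 ± 902 CPM (1.46 ± 0.08), a call that was lost under own-total scaling and with quantile normalization.

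**Figure D2:**
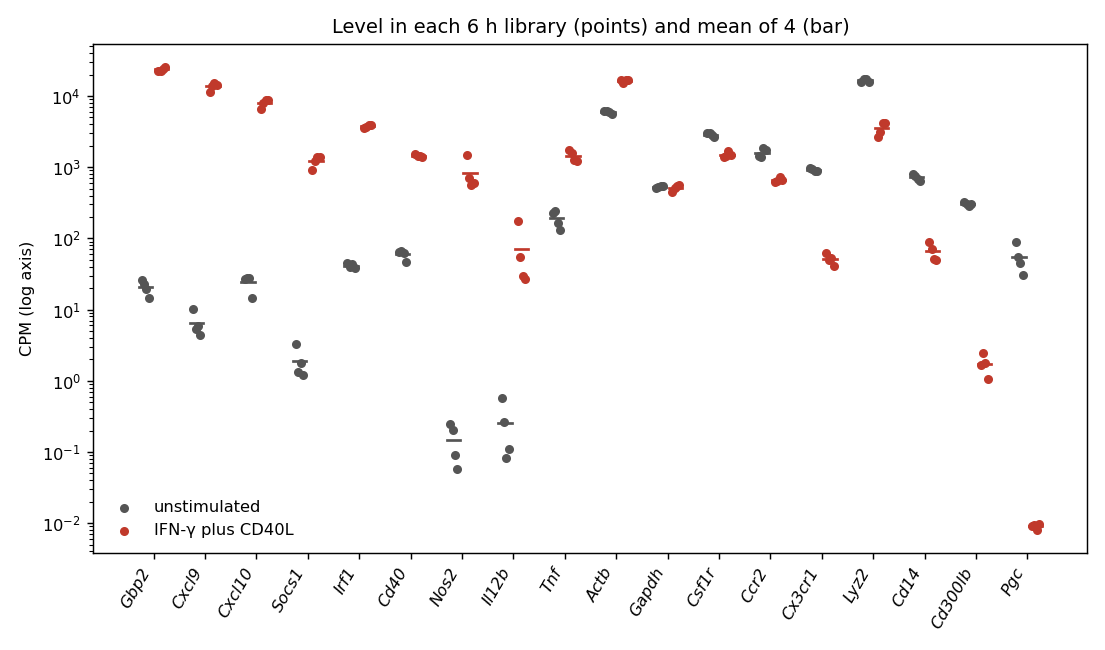
CPM on a log axis of 18 named genes in each 6 h library (points), with the mean of 4 libraries as a bar, for unstimulated (grey) and stimulated (red) libraries. Groups do not overlap for any gene shown except Gapdh, Gbp2 rises from a mean of 20.7 to a mean of 23773 CPM, and Pgc has no reads in stimulated libraries, where its points mark the value that an offset of 0.5 read gives.

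Sequence motifs that the factors of this response are known to bind were searched in promoters, taken from RefSeq on GRCm38.p6 as the 250 bases before and 50 bases after each gene's start. A promoter was found for 9187 of 12109 tested genes with an unambiguous symbol (75.9%), which is under 80%, and for 71.6% of genes called higher against 78.0% of genes called lower, so that the shares below describe the matched genes alone and are void as a statement about all called genes. The motifs were the GAS, TTCNNNGAA, the core of the ISRE, GAAANNGAA, and the NF-kB consensus, each on either strand, and overlapping matches of different motifs were counted for each. The ISRE core was found in 31.1% of 196 promoters of genes that rose 64-fold or more, in 18.8% of those that rose 16- to 64-fold, in 12.6% for 4- to 16-fold and in 9.51% for 2- to 4-fold. It was found in 6.05% of promoters of genes called lower, in 6.54% of those of genes not called and in 8.56% of all 32851 promoters of the table. The share with a GAS was 13.8% in the group that rose 64-fold or more, 8.22% over all genes called higher, 6.77% for genes called lower and 8.30% in the table, and the NF-kB consensus was found in 11.2%, 7.44%, 4.74% and 4.51% of the same groups. These shares are descriptions with no test. Nos2, Ciita, Nlrc5 and Mx1 had no entry in the table.

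**Figure D3:**
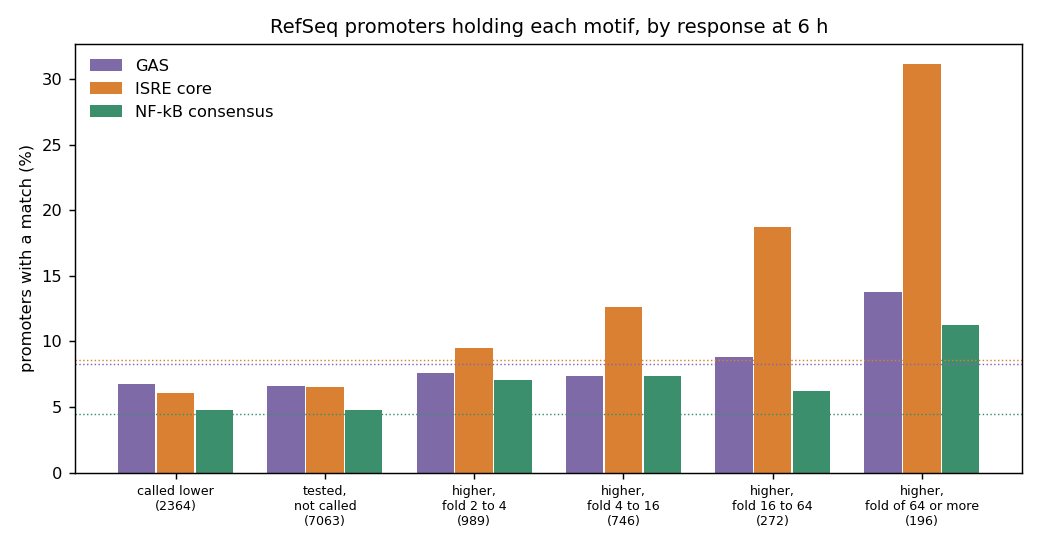
Percentage of RefSeq promoters of 300 bases that hold a GAS, an ISRE core or an NF-kB consensus match, by the response of the gene at 6 h, with the number of promoters in brackets and dotted lines for all promoters of the table. The share with an ISRE core rises with the fold change from 9.51 to 31.1% among genes called higher and is 6.05% among genes called lower.

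The windows around these matches are shown for a choice of genes, 5′ to 3′ on the strand of the gene. The matches are in capitals, which read TTCNNTTTC where an ISRE core lies on the other strand. Other genes with matches, such as Nfkbia, are not shown. In Irf1, an early target of interferons, a GAS began 90 bases before the start and an NF-kB consensus 13 bases before it. Gbp2, Gbp3, Irgm1, Socs1, Cxcl9 and Cd274 held an ISRE core, in Gbp3, Irgm1 and Socs1 as a pair of overlapping matches. Gbp5 and Cxcl10 held an ISRE core together with an NF-kB consensus, Gbp5 also a GAS on each side, and Icam1 and Irf8 held GAS matches. Ccr2, a gene that was called lower, is shown because its promoter held an ISRE core as well. A match is a description of the letters and no evidence that a factor is bound. The windows lie at chr11:53769904-53770013 (Irf1), chr3:142620585-142620633 (Gbp2), chr3:142559980-142560034 (Gbp3), chr3:142496684-142496910 (Gbp5), chr11:48871421-48871470 (Irgm1), chr16:10785585-10785639 (Socs1), chr5:92328226-92328274 (Cxcl9), chr5:92348963-92349122 (Cxcl10), chr19:29367342-29367390 (Cd274), chr9:21015878-21015926 (Icam1), chr8:120736167-120736233 (Irf8) and chr9:124102077-124102125 (Ccr2). Irgm1, Socs1, Cxcl9 and Cxcl10 are on the minus strand and the others on the plus strand of GRCm38.p6.
Irf1: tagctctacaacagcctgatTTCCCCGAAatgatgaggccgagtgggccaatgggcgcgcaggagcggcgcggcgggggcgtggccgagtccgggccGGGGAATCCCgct
Gbp2: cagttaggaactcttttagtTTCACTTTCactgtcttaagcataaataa
Gbp3: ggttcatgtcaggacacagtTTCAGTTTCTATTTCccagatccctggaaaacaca
Gbp5: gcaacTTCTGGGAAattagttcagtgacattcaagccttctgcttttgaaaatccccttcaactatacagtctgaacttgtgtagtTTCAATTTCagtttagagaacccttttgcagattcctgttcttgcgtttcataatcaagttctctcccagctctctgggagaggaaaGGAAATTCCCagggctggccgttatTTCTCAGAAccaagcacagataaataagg
Irgm1: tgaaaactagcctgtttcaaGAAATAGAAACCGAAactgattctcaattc
Socs1: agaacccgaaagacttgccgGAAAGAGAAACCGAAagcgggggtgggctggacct
Cxcl9: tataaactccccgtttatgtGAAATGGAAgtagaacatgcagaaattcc
Cxcl10: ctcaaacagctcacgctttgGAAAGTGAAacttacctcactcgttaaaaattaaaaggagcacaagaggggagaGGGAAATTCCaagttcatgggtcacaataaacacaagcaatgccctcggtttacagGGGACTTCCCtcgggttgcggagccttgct
Cd274: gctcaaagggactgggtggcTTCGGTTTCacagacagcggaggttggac
Icam1: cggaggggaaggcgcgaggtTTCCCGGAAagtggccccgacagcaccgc
Irf8: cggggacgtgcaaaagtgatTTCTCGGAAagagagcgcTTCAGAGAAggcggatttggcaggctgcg
Ccr2: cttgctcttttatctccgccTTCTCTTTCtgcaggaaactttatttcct

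Of the receptor and signaling genes of IFN-γ, 10 of 22 were called higher and 1 was called lower, with a median log2 fold change of 0.86, which is 0.97 above that of all genes. Counts of this and the following lists stand beside 19.5% of all genes called higher and 20.1% called lower. The receptor chain Ifngr1 was at 382, 395, 466 and 444 CPM in unstimulated libraries and at 78.3, 83.4, 83.2 and 79.5 CPM in stimulated ones. It fell in every stimulated library (-2.38 ± 0.06, adjusted p = 6.58e-11), whereas Ifngr2 was at 296 ± 7.39 CPM without and at 201 ± 23.8 CPM with stimulus (-0.56 ± 0.07), short of the minimum fold change, though it was called lower under own-total scaling (-1.29) and with quantile normalization (-1.32). Jak2 went from 166 ± 18.4 to 1579 ± 214 CPM (3.25 ± 0.07). Jak1 went from 240.1 ± 9.92 to 369 ± 16.4 CPM (0.62 ± 0.05) and was not called, and its sign turned to -0.11 under own-total scaling and to -0.25 with quantile normalization.

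Inhibitors of the pathway held the highest rises of this list. Socs1, which blocks the Janus kinases, was at 3.31, 1.34, 1.78 and 1.21 CPM in unstimulated libraries and at 909, 1226, 1406 and 1388 CPM in stimulated ones. Stimulated library 26 was the lowest of its group and still far above every unstimulated library (9.43 ± 0.28, adjusted p = 2.62e-10). Usp18, which restrains type I interferon signaling, went from 5.86 ± 1.35 to 1238 ± 81.1 CPM (7.75 ± 0.12), and Cish, an inhibitor of cytokine receptors that use STAT5, from 0.563 ± 0.119 to 31.5 ± 2.14 CPM (5.83 ± 0.17). Stat5a (0.06), Stat5b (-0.03), Stat6 (-0.24) and the phosphatase Ptpn11 (0.07), were not called.

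Among the 13 interferon regulatory factors and their partners 8 were called higher and 2 lower, with a median of 1.87. Irf1 was at 44.5, 39.2, 43.9 and 38.6 CPM in unstimulated libraries and at 3524, 3706, 3861 and 3902 CPM in stimulated ones. It rose 90.3-fold with little spread in either group (6.50 ± 0.06, adjusted p = 2.35e-13). Batf2, a partner of Irf1 in activated macrophages, went from 0.613 ± 0.312 to 595 ± 45.2 CPM (10.07 ± 0.30), and Irf7, the master regulator of type I interferon production, from 37.9 ± 4.60 to 2515 ± 301 CPM (6.05 ± 0.09). Irf8, required for monocyte and dendritic cell development, went from 238 ± 3.77 to 2449 ± 153 CPM (3.36 ± 0.06). Irf4 (-1.22 ± 0.14) and Irf2bpl (-1.78 ± 0.14) were called lower, Irf4 at 10.5 ± 0.92 against 4.56 ± 0.692 CPM, a call that was lost with quantile normalization and with the NFAM1+/+ libraries alone.

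All 17 guanylate-binding proteins (GBPs) and immunity-related GTPases (IRGs) tested rose, with log2 fold changes from 6.10 to 11.40 and a median of 9.49, which made them the list with the highest median. These interferon-induced GTPases attack the membranes of intracellular bacteria and parasites. Iigp1 went from 1.45 ± 0.464 to 2728 ± 359.8 CPM (10.91 ± 0.18), Gbp4 from 1.53 ± 0.513 to 2727 ± 145 CPM (10.85 ± 0.18) and Gbp11 from 0.118 ± 0.133 to 99.95 ± 17.5 CPM. The smallest rise was that of Irgm1, a regulator of the other IRGs, from 40.4 ± 5.83 to 2759 ± 201 CPM (6.10 ± 0.10). The clustered Gbp genes and the pair Tgtp1 and Tgtp2 are near-identical in part, so that the share of each single gene is uncertain. Of the 17 genes 10 had a promoter in the RefSeq table, of which 10 held an ISRE core and 6 a GAS.

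All 36 antiviral interferon-stimulated genes tested rose as well, from 1.86 to 9.02 with a median of 6.18. Ifit2, which binds viral RNA and restrains its translation, went from 7.96 ± 2.35 to 3996 ± 278 CPM (9.02 ± 0.16). Ifi44 went from 0.462 ± 0.108 to 179 ± 30.1 CPM (8.62 ± 0.19), and Rsad2, which encodes viperin, from 9.44 ± 2.29 to 3463 ± 647 CPM (8.54 ± 0.14). Ifnb1, the gene of interferon-β, was at 0.093, 0.2, 0.0218 and 0.00437 CPM in unstimulated libraries, of which library 4 had no read, and at 35.2, 56.6, 53.9 and 78.5 CPM in stimulated ones. Its groups did not overlap (10.53 ± 0.83, adjusted p = 7.13e-07), but with few reads in unstimulated libraries the fold change was 11.18 without library 2 and 9.63 without library 4, and was 8.35 in NFAM1+/+ and 12.70 in NFAM1-/- libraries alone. Ifit3 and Ifit3b, and the Oas1 genes, are close copies whose single levels are uncertain.

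**Figure D4:**
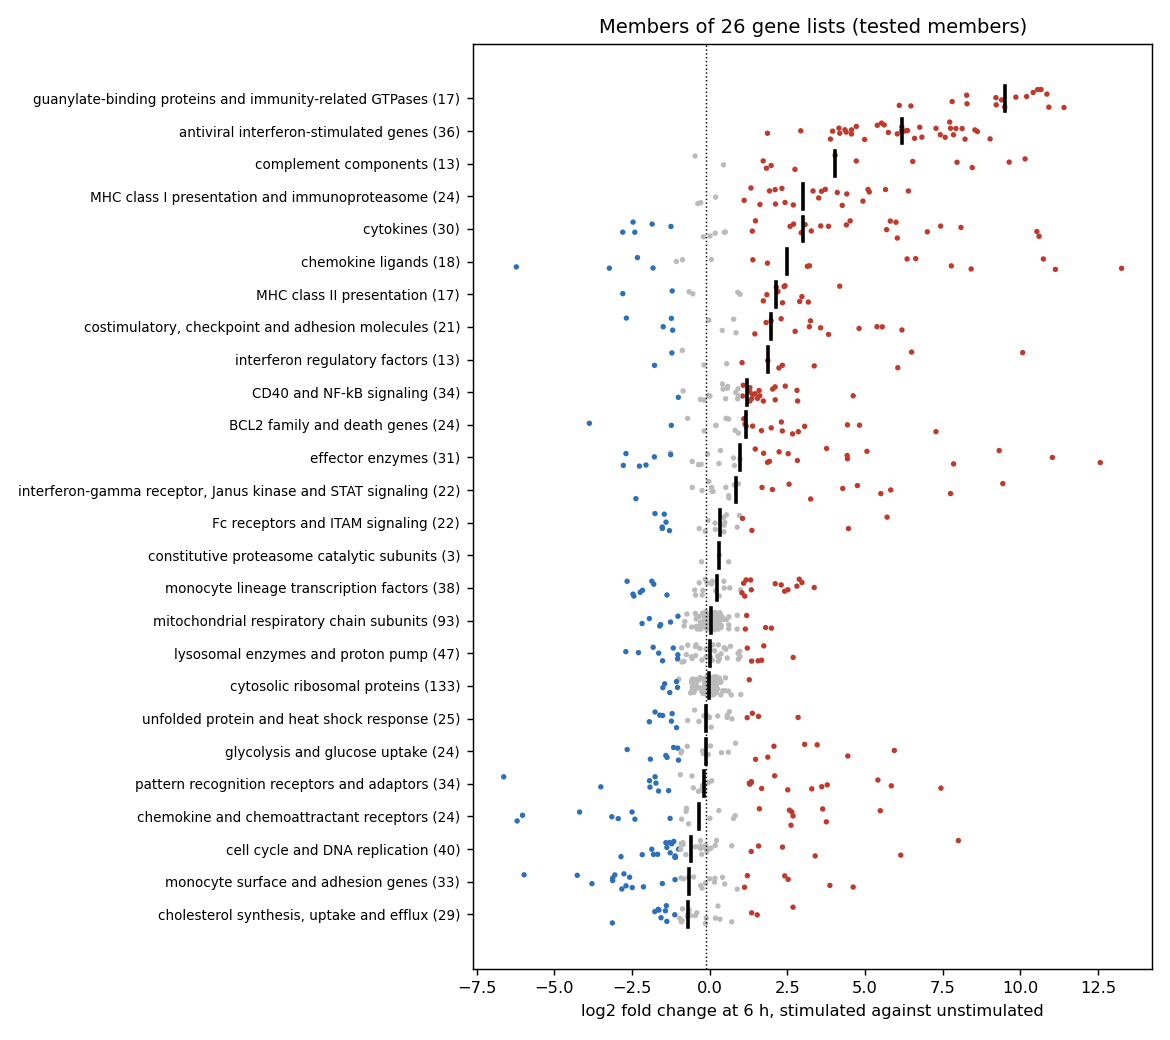
Log2 fold change at 6 h of the tested members of 26 gene lists (1 point a gene, red for called higher, blue for called lower, grey for not called), ordered by list median (black bar), with the number of tested members in brackets and the median of all genes (-0.11) dotted. GBPs and IRGs (median 9.49) and antiviral genes (6.18) lie wholly to the right, while monocyte surface genes (-0.68) and cholesterol genes (-0.69) have the lowest medians.

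Genes of MHC class I presentation rose from the immunoproteasome to the presenting chains, apart from general chaperones. Of 24 genes 21 were called higher and none lower, with a median of 3.01. Nlrc5, the transactivator of MHC class I genes, was at 24.5, 24.9, 20.7 and 18.3 CPM in unstimulated libraries and at 2079.8, 1792, 1756 and 1763 CPM in stimulated ones. Library 26 was the highest of its group and the groups lay 84.1-fold apart (6.39 ± 0.07, adjusted p = 4.98e-13). The immunoproteasome subunit Psmb9 went from 21.4 ± 1.19 to 752 ± 41.1 CPM (5.14 ± 0.05), and the nonclassical class I gene H2-T24 from 6.30 ± 0.508 to 317 ± 12.6 CPM (5.66 ± 0.07). The other 2 immunoproteasome subunits, Psmb8 (3.51 ± 0.06) and Psmb10 (3.32 ± 0.06), the peptide transporter genes Tap1 (5.09 ± 0.07) and Tap2 (4.93 ± 0.06) and the light chain gene B2m (2.32 ± 0.08), were called higher too. The constitutive subunits that the immunoproteasome replaces, Psmb5 (-0.27 ± 0.08), Psmb6 (0.31 ± 0.05) and Psmb7 (0.61 ± 0.06), were not called, and their median of 0.31 turned to -0.42 under own-total scaling and to -0.14 with quantile normalization. The 3 members of the class I list that were not called were the chaperones Calr (-0.38), Canx (-0.29) and Pdia3 (0.19). Reads of H2-Q and H2-T genes may be shared between copies, so that their single levels are uncertain.

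For MHC class II 11 of 17 genes were called higher and 2 lower, with a median of 2.14. Ciita, the transactivator of class II genes, was at 10.1, 11.2, 7.04 and 9.65 CPM in unstimulated libraries and at 199, 160.4, 153 and 172 CPM in stimulated ones. All stimulated libraries lay above the unstimulated ones (4.18 ± 0.11, adjusted p = 1.27e-10). The peptide-loading genes H2-DMa (34.4 ± 5.37 to 308 ± 29.3 CPM, 3.17 ± 0.09) and H2-DMb1 (17.5 ± 2.32 to 138 ± 23.8 CPM, 2.97 ± 0.12) rose more than the presenting chains H2-Aa (2.20 ± 0.12), H2-Ab1 (2.42 ± 0.11) and H2-Eb1 (1.84 ± 0.13), a comparison of values for which no test of the difference was made. Lgmn, an asparaginyl endopeptidase of the endosome, was the largest fall of the list, from 365 ± 31.2 to 52.5 ± 2.05 CPM (-2.80 ± 0.06), and Rfxank, a subunit of the RFX complex, fell by 1.21 on the log2 scale, a call that was lost with quantile normalization.

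Of the chemokine ligands 11 of 18 were called higher and 4 lower, with a median of 2.50. The ligands of CXCR3 rose together, with Cxcl11 going from 0.384 ± 0.237 to 577 ± 84.96 CPM (10.74 ± 0.35) beside Cxcl9 and Cxcl10. Ccl5 (8.06 ± 1.38 to 1812 ± 614 CPM, 7.78 ± 0.14) and Ccl2 (0.944 ± 0.0648 to 77.7 ± 11.5 CPM, 6.35 ± 0.13), ligands for T cells and monocytes, were called higher. The 4 that fell were Cxcl14, Ccl6, Ccl9 and Ccl24. Ccl9 was at 554, 572, 565 and 586 CPM in unstimulated libraries and at 104, 105, 123 and 123 CPM in stimulated ones. The groups did not overlap (-2.33 ± 0.06, adjusted p = 4.63e-11). Ccl6 fell from 124 ± 18.2 to 13.7 ± 4.34 CPM (-3.23 ± 0.14). Cxcl14 fell from 4.19 ± 0.778 to 0.0826 ± 0.0621 CPM (-6.22 ± 0.75), a value that was -5.33 without library 26 and -6.98 without library 10. The neutrophil attractants Cxcl2 (-0.87 ± 0.17) and Cxcl3 (-1.07 ± 0.49) were not called.

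The receptors for chemokines and other attractants did not share a direction, with 8 of 24 called higher, 8 called lower and a median of -0.34. The receptors that bring monocytes into blood and tissue were among those that fell. Ccr2, which monocytes need to leave the bone marrow, was at 1443, 1392, 1836 and 1746 CPM in unstimulated libraries and at 616, 634, 739 and 650.4 CPM in stimulated ones (-1.28 ± 0.06, adjusted p = 1.83e-08). Cx3cr1, the receptor of fractalkine, was at 982, 939, 895 and 885 CPM without stimulus and at 61.3, 48.9, 53.8 and 41.2 CPM with it (-4.19 ± 0.09, adjusted p = 2.82e-11). Neither gene had overlapping groups. Gpr183, a receptor for oxysterols that derive from the product of Ch25h, fell from 89.7 ± 9.64 to 1.23 ± 0.194 CPM (-6.20 ± 0.13), and the sphingosine phosphate receptor S1pr1 from 3.34 ± 0.712 to 0.0837 ± 0.0788 CPM (-6.02 ± 0.79), which was -5.17 without library 11. The nucleotide sugar receptor P2ry14 rose from 0.992 ± 0.318 to 42.5 ± 4.35 CPM (5.49 ± 0.22) and the chemerin-binding receptor Ccrl2 from 45.5 ± 9.40 to 604 ± 40.1 CPM (3.75 ± 0.10). Cxcr5 was called higher (3.64 ± 0.88) at no more than 1.56 ± 0.225 CPM and was 2.79 without library 1 and 4.59 without library 2, and the call was lost with the NFAM1+/+ libraries alone (3.38).

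Of 30 cytokine genes 20 were called higher and 5 lower, with a median of 3.01. Tnf was at 224, 244, 164 and 132 CPM in unstimulated libraries and at 1731, 1575, 1248 and 1223 CPM in stimulated ones. The groups did not overlap (2.94 ± 0.08, adjusted p = 1.65e-10). Il12b, a subunit of interleukin-12 and interleukin-23, was at 0.571, 0.265, 0.0827 and 0.109 CPM without stimulus and at 174, 54.9, 29.4 and 26.4 CPM with it (8.09 ± 0.35, adjusted p = 5.91e-09). Library 26 was the highest stimulated library for this gene, at more than 2-fold each of the other 3. Tnfsf10, the death ligand TRAIL, went from 0.408 ± 0.296 to 538 ± 34.1 CPM (10.60 ± 0.32). The 5 cytokine genes that fell were Il16 (-2.80 ± 0.17), Tnfsf12 (-2.41 ± 0.17), Tnfsf13 (-2.47 ± 0.43), Vegfa (-1.85 ± 0.23) and Il1b, the last of them from 277 ± 48.5 to 123 ± 51.7 CPM (-1.25 ± 0.15), whereas the receptor antagonist Il1rn rose from 51.8 ± 11.9 to 1176 ± 195 CPM (4.52 ± 0.08).

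In the CD40 and NF-kB list 19 of 34 genes were called higher and 1 lower, with a median of 1.19, but only 7 were called higher under own-total scaling, where the median was 0.46. Cd40 itself was at 64.7, 67.3, 61.9 and 46.1 CPM in unstimulated libraries and at 1549.8, 1435, 1444 and 1403 CPM in stimulated ones. It rose 24.5-fold (4.62 ± 0.09, adjusted p = 1.12e-11). Traf1, an adaptor that NF-kB induces, was at 207, 222, 156 and 148 CPM without stimulus and at 1136, 756, 648 and 659 CPM with it, with library 26 highest (2.11 ± 0.10). The feedback inhibitor Tnfaip3, which encodes A20, went from 197 ± 29.3 to 1393 ± 167 CPM (2.83 ± 0.07), and Tnfaip2 from 707 ± 110.1 to 4910.1 ± 317 CPM (2.81 ± 0.09). Nfkb1 (1.29 ± 0.05) and the inhibitor gene Nfkbia (1.29 ± 0.07) were called higher, but not under own-total scaling or with quantile normalization.

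The subunit and adaptor genes of the noncanonical arm were not called higher at 6 h under the deposited scaling, whereas Nfkb2 was with median centring (1.09). Nfkb2 went from 379 ± 30.3 to 712 ± 49.03 CPM (0.91 ± 0.06), Relb from 171 ± 16.01 to 243 ± 7.27 CPM (0.51 ± 0.07) and Traf3, which restrains this arm, from 122 ± 5.47 to 165 ± 22.8 CPM (0.43 ± 0.08). The signs of Traf3 and Relb turned to -0.30 and -0.22 under own-total scaling, and those of Traf3, Nfkb2 and Relb to -0.10, -0.06 and -0.18 with quantile normalization. Map3k14, the kinase of this arm known as NIK, was at 75.6, 78.1, 72.5 and 79.3 CPM in unstimulated libraries and at 37.1, 36.7, 42.8 and 35.5 CPM in stimulated ones. The groups did not overlap (-1.01 ± 0.07, adjusted p = 2.74e-07), but the fold change lay at the threshold, and the call was lost without library 2 (-0.99), 4 (-0.99), 10 (-0.997) or 12 (-0.97), and with median centring.

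Costimulatory, checkpoint and adhesion genes rose in 13 of 21 cases and fell in 4, with a median of 1.98. Cd69, an early activation marker, went from 7.64 ± 0.948 to 563 ± 116 CPM (6.19 ± 0.14), and Slamf8 from 14.6 ± 1.68 to 685 ± 43.3 CPM (5.55 ± 0.08). Cd274, which encodes the checkpoint ligand PD-L1, was at 49.8, 50.8, 31.3 and 28.6 CPM in unstimulated libraries and at 1620.0, 1664, 1594 and 1597 CPM in stimulated ones. The stimulated libraries were level with each other (5.38 ± 0.12, adjusted p = 3.27e-11). Of the paired ligands of CD28, Cd86 rose from 88.02 ± 7.36 to 1046 ± 106 CPM (3.57 ± 0.08), while Cd80 was at 16.3 ± 1.01 and 28.5 ± 7.37 CPM and was not called (0.77 ± 0.13). The 4 that fell were the checkpoint gene Vsir (-2.68 ± 0.09), Cd48 (-1.50 ± 0.06), the inhibitory receptor Cd200r1 (-1.23 ± 0.19), whose call was lost with the NFAM1+/+ libraries alone (-0.98), and Sirpa (-1.19 ± 0.08), the receptor for the self signal CD47.

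Among effector enzymes 15 of 31 were called higher and 6 lower, with a median of 0.98. Beside Nos2 and Ch25h, the tryptophan-degrading Ido1 rose from 0.218 ± 0.0996 to 129.5 ± 30.9 CPM (9.32 ± 0.29). The lysozyme genes Lyz2 and Lyz1, which are close copies, fell by 2.26 and 2.78 on the log2 scale, and Alox5, the enzyme of leukotriene synthesis, fell from 11.8 ± 1.91 to 1.99 ± 0.92 CPM (-2.70 ± 0.33). The genes Cybb (0.80), Cyba (0.35), Ncf1 (0.77) and Ncf4 (-0.28) of the phagocyte NADPH oxidase were not called. Of 13 complement genes 11 were called higher and none lower, with a median of 4.04. C1s1 went from 0.119 ± 0.121 to 97.2 ± 13.1 CPM (10.15 ± 0.40) and C4b from 0.636 ± 0.187 to 214 ± 8.02 CPM (8.45 ± 0.18). Serping1, the inhibitor of C1, went from 0.186 ± 0.152 to 95.4 ± 12.1 CPM (9.64 ± 0.70) and was 8.78 without library 3 and 10.30 without library 4.

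Pattern recognition genes were split, with 13 of 34 called higher, 8 called lower and a median of -0.17, a sign that turned to 0.01 with median centring. Endosomal Toll-like receptors differed among themselves. Those that rose most were Tlr3, a sensor of double-stranded RNA, and Tlr11 and Tlr12, which sense protozoan profilin. Tlr3 went from 0.316 ± 0.191 to 48.9 ± 2.26 CPM (7.44 ± 0.27), Tlr11 from 0.273 ± 0.173 to 13.9 ± 0.932 CPM (5.84 ± 0.32) and Tlr12 from 0.362 ± 0.239 to 12.4 ± 0.809 CPM (5.41 ± 0.42). Tlr9, a sensor of DNA, was also called higher (3.78 ± 0.08), whereas Tlr8 was called lower (-1.65 ± 0.12) and Tlr7 was not called (-0.03 ± 0.12). Cd14, the co-receptor for lipopolysaccharide, was at 807, 758, 689 and 648 CPM in unstimulated libraries and at 89.7, 70.6, 51.9 and 50.03 CPM in stimulated ones. Every stimulated library was far below every unstimulated one (-3.50 ± 0.10, adjusted p = 1.59e-10). Of the listed C-type lectins Cd209a (-6.63 ± 0.27), Clec4d (-1.94 ± 0.05), Clec4n (-1.76 ± 0.09) and Clec7a (-1.32 ± 0.08) were called lower, while Clec4e was not called (-0.17 ± 0.10).

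Of the Fc receptor and ITAM genes 4 of 22 (18.2%) were called higher and 6 (27.3%) lower, near the 19.5% and 20.1% of all genes. The median of 0.32 turned to -0.41 under own-total scaling and to -0.61 with quantile normalization. Among the activating receptors for immunoglobulin G, Fcgr4 rose from 7.39 ± 1.24 to 384 ± 51.8 CPM (5.71 ± 0.10) and the high-affinity Fcgr1 from 31.8 ± 3.34 to 702 ± 62.5 CPM (4.47 ± 0.06), whereas Fcgr3 was not called (0.88 ± 0.09). The inhibitory Fcgr2b fell (-1.41 ± 0.08), as did the TREM genes Trem3 (-1.76 ± 0.14), Trem1 (-1.53 ± 0.22) and Treml4 (-1.52 ± 0.12). Nfam1, the gene deleted in part in NFAM1-/- mice, was at 432, 408, 299 and 321 CPM in unstimulated libraries and at 133, 129, 135 and 127 CPM in stimulated ones. It fell in both genotypes (-1.46 ± 0.08, adjusted p = 5.34e-08), and since reads were counted over the whole gene, of which the deletion leaves a part, its level is no check of the genotype.

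Monocyte identity genes were described by their surface and adhesion genes and by their lineage transcription factors. Of 33 surface and adhesion genes 6 were called higher and 14 lower, with a median of -0.68. Ly6c2 rose from 424 ± 90.1 to 2401 ± 137 CPM (2.53 ± 0.13) and Ly6c1 from 2.04 ± 0.651 to 48.2 ± 5.56 CPM (4.62 ± 0.22), both being close copies. Adgre4 fell from 215 ± 21.6 to 3.42 ± 0.332 CPM (-5.97 ± 0.09), Cd33 from 41.3 ± 11.7 to 2.12 ± 0.453 CPM (-4.26 ± 0.21) and Cd93 from 92.2 ± 20.8 to 6.99 ± 2.997 CPM (-3.79 ± 0.14). Csf1r, the receptor that keeps monocytes alive, was at 2997, 2979, 2805 and 2665 CPM in unstimulated libraries and at 1410.1, 1448, 1701 and 1463 CPM in stimulated ones. All stimulated libraries were lower (-0.93 ± 0.08, adjusted p = 9.48e-07), yet the change was under 2-fold and not called, except with the NFAM1+/+ libraries alone (-1.06), under own-total scaling (-1.66) and with quantile normalization (-2.01).

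Of 38 lineage transcription factors 14 were called higher and 8 lower, and the median of 0.25 turned to -0.48 under own-total scaling. The factors that rose were led by Irf8, Klf4 (128 ± 9.30 to 1003 ± 136 CPM, 2.97 ± 0.09) and Klf6 (154 ± 9.18 to 1139 ± 130.4 CPM, 2.88 ± 0.08), and those that fell included Cebpd (114 ± 16.8 to 17.98 ± 1.20 CPM, -2.66 ± 0.09) and Nr4a1 (184 ± 29.7 to 34.5 ± 11.8 CPM, -2.47 ± 0.10). Nr4a1 is needed for the nonclassical, Ly6C-low monocytes. Spi1, which encodes the myeloid factor PU.1, was not called (667 ± 49.1 to 919 ± 30.3 CPM, 0.47 ± 0.06).

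The labelled cell type was checked with markers. All 12 monocyte markers were listed and were above 40 CPM in each 6 h library, and their summed level was 25471 to 27882 CPM in unstimulated and 10691 to 12820 CPM in stimulated libraries, with 1 marker called higher and 6 called lower. In bulk RNA, fewer cells of a type and less RNA of a gene per cell cannot be told apart. Neutrophil and granulocyte precursor markers summed to 110.3 to 269.7 CPM without stimulus and to 128 to 393 CPM with it, with 1 of 12 tested called higher and none lower. T cell markers summed to 0.975 to 2.16 CPM without and 3.66 to 5.03 CPM with stimulus, from 4 of 12 markers that were listed, and Lck and Cd8a were called higher. Dendritic cell markers rose from between 99.8 and 131 CPM to between 513 and 649.9 CPM, with 5 of 10 called higher, namely Zbtb46, Xcr1, Clec9a, Tcf4 and Bst2, which is also an antiviral gene and took 394 ± 43.7 CPM of the sum, while Flt3 (-2.76 ± 0.15) and Cd209a were called lower. Tcf4 was at 17.4, 18.1, 20.5 and 22.7 CPM in unstimulated libraries and at 117, 103, 86.3 and 105 CPM in stimulated ones. Stromal and endothelial markers went from between 13.5 and 46.2 CPM to between 35.8 and 95.3 CPM, with Kdr and Cdh5 called higher, Pdgfrb called lower and Col1a1 above 16 CPM only in libraries 4 and 12. Erythroid markers summed to 7.68 to 20.02 CPM without and 10.8 to 55.8 CPM with stimulus, groups that overlap, with 4 of 6 called higher and none lower. Of 4 listed B cell markers Ighm was called higher and Cd79b lower, with sums of 135 to 154 CPM and 312 to 371 CPM, and Klrd1, the listed NK cell marker, was called lower. The part of other cells in the responses was not tested. Leaving out libraries 4 and 12 together gave 2355 genes called higher and 2368 called lower.

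The 10 largest falls among genes with a mean of at least 10 CPM were those of Pgc, Gkn1, Gkn2, Cd300lb, Cd209a, Gpr183, Hpgd, Adgre4, F630028O10Rik and Deptor. Pgc, Gkn1 and Gkn2 are transcripts of the stomach epithelium, encoding progastricsin and the gastrokines. Pgc was at 87.8, 53.9, 45.1 and 31.00 CPM in unstimulated libraries and had no read in any stimulated library, at least 996-fold lower against the limit of 3 reads per library. A list of 18 stomach transcripts, made after these values were seen, was called lower in 18 of 18 cases. Its summed level was 274, 172, 141 and 95.5 CPM in unstimulated libraries 1 to 4, at most 0.310 CPM in stimulated libraries and at most 0.691 CPM in the libraries of 24 h, stimulated or not. By read numbers alone, 28 genes had at least 20 reads in each unstimulated 6 h library and at most 10 in each of the other 12 libraries, of which 27 were tested and 17 belong to the stomach list. This choice fixes the direction of these genes, and nothing is read from it. Without them 2367 genes were called higher and 2406 lower, and the part of other cells in the falls of Pgc, Gkn1 and Gkn2 was not tested.

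Cd300lb, an activating receptor of the CD300 family, was at 328, 301, 282 and 308 CPM in unstimulated libraries and at 1.68, 2.42, 1.79 and 1.07 CPM in stimulated ones. The groups were 182-fold apart (-7.51 ± 0.17, adjusted p = 3.86e-11). Hpgd, which degrades prostaglandins, fell from 150.2 ± 40.02 to 2.28 ± 0.556 CPM (-6.04 ± 0.21), while Ptgs2, which starts their synthesis, rose from 4.78 ± 1.63 to 1059.8 ± 163 CPM (7.85 ± 0.12). Deptor, an inhibitor of mTOR, fell from 34.03 ± 6.33 to 0.957 ± 0.44 CPM (-5.33 ± 0.34).

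The largest losses of mean CPM were those of Lyz2, Fn1, Apoe, Vcan and F13a1, genes of high level in monocytes. Lyz2 was at 15963, 17359, 17380.4 and 15690.0 CPM in unstimulated libraries and at 2667, 3135, 4112 and 4159 CPM in stimulated ones (-2.26 ± 0.12, adjusted p = 2.02e-08). Fn1, which encodes fibronectin, was at 5768, 4382, 5172 and 6076 CPM without stimulus and at 423, 616, 739.9 and 714 CPM with it (-3.12 ± 0.13, adjusted p = 5.28e-09). The groups of neither gene overlapped, and stimulated library 26 was the lowest for both. Apoe went from 1568 ± 258 to 182 ± 52.8 CPM (-3.13 ± 0.10), the proteoglycan gene Vcan from 1632 ± 152 to 253 ± 30.8 CPM (-2.69 ± 0.09) and the coagulation factor gene F13a1 from 1399 ± 68.8 to 175 ± 50.9 CPM (-3.05 ± 0.18).

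Metabolic lists were less uniform than the interferon lists. For cholesterol synthesis, uptake and efflux 3 of 29 genes were called higher and 9 lower, with a median of -0.69, which is 0.58 below that of all genes. The sterol reductase Dhcr7 (-1.77 ± 0.17), the sterol carrier Stard4 (-1.66 ± 0.09) and Apoe fell, while the transporter Abcg1 rose from 22.2 ± 3.38 to 143 ± 28.8 CPM (2.68 ± 0.14). The ligase Mylip (1.53 ± 0.16) and Pmvk (1.35 ± 0.12) were called higher but not under own-total scaling. Glycolysis and glucose uptake split into 7 called higher and 7 called lower of 24, with a median of -0.13 that turned to 0.05 with median centring. Hk3 went from 30.1 ± 6.40 to 1818 ± 97.4 CPM (5.94 ± 0.10), Pfkfb3, which makes the activator of phosphofructokinase, from 22.5 ± 2.29 to 500.2 ± 133 CPM (4.44 ± 0.15) and Pfkp from 130.2 ± 15.1 to 1425 ± 32.9 CPM (3.46 ± 0.06), whereas the liver-type phosphofructokinase Pfkl fell from 49.1 ± 1.72 to 13.1 ± 0.982 CPM (-1.91 ± 0.07), and Slc2a3 (-2.66 ± 0.22) and Aldoc (-1.41 ± 0.39) fell as well, the call of Aldoc being lost with the NFAM1-/- libraries alone (-1.18). Both phosphofructokinase genes named thus changed in opposite directions.

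Of 93 genes named for respiratory chain subunits, 4 were called higher and 6 lower, with a median of 0.06 that turned to -0.67 under own-total scaling and to -0.11 with quantile normalization. Called higher were Cycs, which encodes cytochrome c (49.9 ± 4.82 to 173 ± 9.004 CPM, 1.80 ± 0.07), Cox6a2 (1.99 ± 0.33), Ndufs4 (1.19 ± 0.06), whose call was lost under own-total scaling, and Cox7a2 (1.15 ± 0.05), and of those called lower Ndufaf7 (-2.18 ± 0.19) and Ndufaf4 (-1.61 ± 0.18) are assembly factors rather than subunits. Of 133 tested genes with symbols of cytosolic ribosomal proteins 1 was called higher and 5 lower, with a median of -0.01, and these 6 are the kinases Rps6ka1 (-1.51 ± 0.05), Rps6ka2 (-1.45 ± 0.21), Rps6ka4 (1.27 ± 0.05) and Rps6ka5 (-1.04 ± 0.12), the binding protein gene Rps19bp1 (-1.07 ± 0.11) and the pseudogene Rpl28-ps3 (-1.29 ± 0.34). The call of Rps6ka4 was lost under own-total scaling and with quantile normalization, and that of Rpl28-ps3 with the NFAM1-/- libraries alone. No gene of a ribosomal protein proper was thus called, although the median of the list was -0.74 under own-total scaling, -0.72 with quantile normalization and 0.17 with median centring.

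Of 40 cell cycle and replication genes 6 were called higher and 15 lower, with a median of -0.61. The mitotic genes Cdc20 (119.6 ± 7.82 to 17.4 ± 6.05 CPM, -2.85 ± 0.18), Cdc25b (55.7 ± 3.40 to 12.7 ± 3.26 CPM, -2.17 ± 0.12) and Bub1b (159 ± 13.6 to 44.4 ± 9.66 CPM, -1.86 ± 0.14) fell. The cyclins of the entry into the cycle rose, Ccnd2 from 1.58 ± 0.368 to 409 ± 127 CPM (8.003 ± 0.19) and Ccnd1 from 0.942 ± 0.364 to 64.1 ± 9.51 CPM (6.15 ± 0.22), together with the inhibitor of cyclin-dependent kinases Cdkn1a, from 203 ± 24.6 to 2125 ± 177 CPM (3.39 ± 0.07). Of 24 BCL2 family and death genes 14 were called higher and 2 lower, with a median of 1.15. The sensor of Z-form nucleic acid Zbp1 (14.3 ± 2.69 to 2193 ± 23.3 CPM, 7.28 ± 0.12) and the necroptosis effector Mlkl (15.1 ± 2.75 to 323 ± 16.8 CPM, 4.43 ± 0.10) rose, and the 2 that fell were the proapoptotic genes Bmf (123 ± 15.1 to 8.44 ± 1.28 CPM, -3.87 ± 0.11) and Pmaip1 (109 ± 8.16 to 46.6 ± 9.07 CPM, -1.24 ± 0.10).

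Lysosomal genes had a median of 0.01 with 6 of 47 called higher and 8 called lower, a median that turned to -0.72 under own-total scaling and to -0.49 with quantile normalization. The cathepsins went both ways, with Ctsc rising from 901 ± 105 to 5789 ± 560.4 CPM (2.69 ± 0.09) and Ctsh from 414 ± 22.4 to 1387 ± 169 CPM (1.74 ± 0.08), the latter a call lost with quantile normalization, while Ctsd fell from 257 ± 41.6 to 39.4 ± 5.66 CPM (-2.70 ± 0.11) and Ctsl from 91.5 ± 10.5 to 25.9 ± 3.16 CPM (-1.82 ± 0.07). Unfolded protein and heat shock genes were called higher in 4 of 25 cases (16%) and lower in 7 (28%), also near those shares. Their median of -0.10 turned to 0.07 with median centring. Trib3, a pseudokinase induced by stress, went from 14.4 ± 4.13 to 101 ± 13.03 CPM (2.84 ± 0.13), and the stress sensor Eif2ak3, also called PERK, fell from 33.95 ± 2.84 to 8.84 ± 0.784 CPM (-1.94 ± 0.10). Hspa1a (1.57 ± 0.17) and Hspa1b (1.37 ± 0.17), close copies, were called higher but not under own-total scaling.

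Genes often used as references depended on the scaling. Gapdh was at 531 ± 16.8 CPM without and 517 ± 47.8 CPM with stimulus (-0.04 ± 0.06, adjusted p = 0.49) and its sign turned to 0.13 with median centring, while it was called lower with quantile normalization (-1.03). Ppia was at 588 ± 22.9 and 615 ± 47.3 CPM (0.06 ± 0.06, adjusted p = 0.378) and its sign turned to -0.67 under own-total scaling and to -0.98 with quantile normalization. Hprt was called higher, from 111 ± 4.16 to 329.6 ± 47.6 CPM (1.56 ± 0.08), though not under own-total scaling or with quantile normalization.

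The 24 h libraries, 4 stimulated in the same way and 4 unstimulated, share no library with the 6 h comparison. Of 12782 genes tested over all 16 libraries, 1861 (14.6%) were called higher and 2384 (18.7%) lower at 24 h. Of the genes called higher at 6 h, 1313 were called higher at 24 h too, which is 55.5% of the 6 h genes and 70.6% of the 24 h genes, and 113 were called lower. Of the genes called lower at 6 h, 1164 were called lower at 24 h, which is 47.8% of the 6 h genes and 48.8% of the 24 h genes, and 26 were called higher. In the test of the difference itself, 1687 genes (13.2%) had a response at 24 h above that at 6 h and 2313 genes (18.1%) one below it. With own-total scaling these counts were 3234 and 1548, so that the direction with more genes depended on the scaling. Among the genes called higher at 6 h, 1204 had a lower response at 24 h and 105 a higher one. Among those called lower at 6 h, the response was less negative at 24 h for 922 genes and more negative for 245. The 6 h values that chose these genes also enter the difference. That choice alone tilts both splits toward smaller responses at 24 h, and nothing is read from them.

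**Figure D5:**
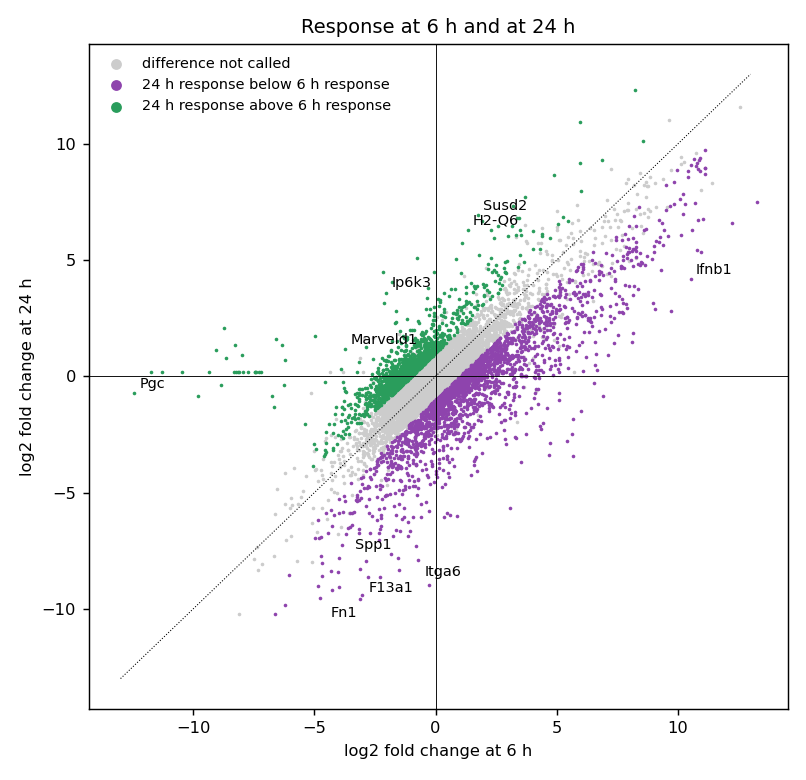
Log2 fold change of stimulated against unstimulated libraries at 6 h (horizontal axis) and at 24 h (vertical axis), 1 point a gene, for genes tested in both. Green points are genes whose 24 h response was called above the 6 h response, purple points those called below it and grey points the rest, the dotted line marks equal responses, and the row of green points near 0 on the vertical axis at the left holds genes such as Pgc that had reads in unstimulated 6 h libraries and next to none at 24 h.

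The list medians of both times are given under the deposited scaling, with no test of their difference. The median log2 fold change was 9.49 at 6 h and 8.22 at 24 h for GBPs and IRGs, 6.18 and 3.41 for antiviral genes, 3.01 and 3.21 for MHC class I and 1.19 and 1.497 for CD40 and NF-kB signaling. Monocyte surface genes went from -0.68 to -1.46 and genes with ribosomal protein symbols from -0.01 to -0.80, against medians of -0.11 and 0.01 over all genes. At 24 h 20 of 33 surface genes and 52 of the 154 listed ribosomal symbols were called lower, against 18.7% of all genes. The 52 were counted over all listed ribosomal symbols, which include kinases and pseudogenes, while the medians cover only the 133 tested at 6 h. The other scalings were not applied to the medians of 24 h. In stimulated libraries the reads over the scaled size lay between 1.24 and 1.32 at 6 h and between 0.970 and 0.997 at 24 h. The part of this in the medians was not tested.

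Differences between the times are given for single genes. Ifit2 was at 25.1 ± 5.98 CPM without and 1007 ± 55.3 CPM with stimulus at 24 h, and its response minus that at 6 h was -3.66 ± 0.27 (adjusted p = 4.75e-09). The difference was -2.35 ± 0.20 for Gbp2, -3.15 ± 0.34 for Socs1, -1.15 ± 0.09 for Irf1 and -6.34 ± 1.20 for Ifnb1, which stood at 1.63 ± 0.54 CPM in stimulated libraries of 24 h, and each was called. Nos2 was at 1543 ± 843 CPM in stimulated libraries of 24 h, and its difference was not called (-0.97 ± 0.67, adjusted p = 0.217). The named subunits of the noncanonical NF-kB arm and the adaptor Traf1 had higher responses at 24 h. The difference was 1.54 ± 0.14 for Nfkb2, 1.47 ± 0.16 for Relb and 1.60 ± 0.33 for Traf1, and Nfkb2 stood at 168 ± 27.8 CPM without and 911 ± 57.96 CPM with stimulus. Compared with its 6 h levels given above, Nfkb2 at 24 h was lower without stimulus and higher with it. Both changes enter the difference of Nfkb2. For Map3k14, the kinase gene of this arm, the difference was not called (-0.06 ± 0.11, adjusted p = 0.669). Map3k14 was called lower at 24 h too (-1.07 ± 0.08).

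The largest positive differences among genes with a mean of at least 10 CPM over the 16 libraries were those of Pgc, Ip6k3, Susd2, H2-Q6 and Marveld1. Ip6k3, a kinase of inositol phosphates, fell at 6 h from 4.13 ± 1.01 to 0.988 ± 0.211 CPM and rose at 24 h from 4.44 ± 1.74 to 51.7 ± 11.2 CPM (difference 5.66 ± 0.38). Marveld1 fell at 6 h (-3.72 ± 0.22) and rose at 24 h (1.18 ± 0.21). H2-Q6 went from 107 ± 23.4 to 266 ± 33.5 CPM at 6 h and from 17.6 ± 5.14 to 1357 ± 84.6 CPM at 24 h (difference 4.99 ± 0.24), and its call at 6 h was lost under own-total scaling and with quantile normalization. Susd2 went from 0.638 ± 0.38 to 1.90 ± 0.858 CPM at 6 h, a call lost under own-total scaling, and from 0.738 ± 0.299 to 84.7 ± 15.5 CPM at 24 h. The value of Pgc (11.72 ± 1.17) rested on its reads in unstimulated 6 h libraries, and it was at 0.0293 ± 0.0324 and 0.0146 ± 0.0153 CPM at 24 h.

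The largest negative differences were those of Spp1, Ifnb1, F13a1, Fn1 and Itga6. Fn1 fell from 5349 ± 746 to 623 ± 144 CPM at 6 h and from 2552 ± 375 to 3.33 ± 0.502 CPM at 24 h (difference -6.46 ± 0.23), and F13a1 was at 1.10 ± 0.287 CPM in stimulated libraries of 24 h (difference -6.36 ± 0.31). Spp1, which encodes osteopontin, fell by 1.55 on the log2 scale at 6 h and stood at 0.344 ± 0.169 CPM in stimulated libraries of 24 h. The integrin gene Itga6 was not called at 6 h, at 7.59 ± 2.26 against 4.49 ± 0.912 CPM (-0.73 ± 0.22), though it was called lower under own-total scaling (-1.46) and with the NFAM1-/- libraries alone (-1.21), and went from 85.5 ± 17.3 to 0.357 ± 0.0609 CPM at 24 h. Of the monocyte genes named above, Ccr2 (-1.50 ± 0.29) and Csf1r (-1.27 ± 0.12) also had a more negative response at 24 h, whereas Cd14 had a less negative one (1.53 ± 0.58). Unstimulated Cd14 was at 725 ± 70.6 CPM at 6 h and 293 ± 92.7 CPM at 24 h. Its stimulated level was 65.6 ± 18.6 CPM at 6 h and 89.7 ± 59.9 CPM at 24 h.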

How the data were processed

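Mouse monocyte RNA was sequenced from non-stranded, poly(A)-selected, paired-end libraries, and the 8 libraries of 6 h were compared with 8 of 24 h as a reference for time. Per the authors' processing notes, reads were checked with FastQC and aligned with STAR and, per the study's methods, counted with Rsubread, with the builds GRCm39 and mm39, and edgeR and limma are named. The deposited values are log2 CPM of gene counts, with 0.5 read added and with a scaled library size, and whole reads were recovered from them for all values within a tolerance of 0.1. They were not tested with a count model. Columns of other samples were not present, the tag of genotype conflicts with the title in 4 libraries of 24 h, for which no genotype was used, and 17 gene symbols had been turned into dates and were left as they stand.

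Log2 CPM values were fitted with limma 3.58.1 (R 4.3.3), with the prior variance following the mean (trend). The 6 h fit held stimulus and genotype, and the fit over 16 libraries held stimulus, time and their interaction. Genes needed at least 1 CPM in at least 2 libraries, and adjusted p-values are Benjamini-Hochberg values over all genes tested. Fitted fold changes of genes without reads depend on the 0.5 read added, and against a group without reads a fold is given as a lower bound from 3 reads per library. The fit was also run on simulated data in which few genes changed and the library sizes were known. Such data cannot show how the scaling affects the calls, and nothing is read from them. Sequence windows and figures were made with Python 3.11.15, pandas 2.3.3 and matplotlib 3.10.9.

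Genes were named by these rules: the 10 largest called rises and falls with a mean of at least 10 CPM and groups that did not overlap, the 5 largest gains and losses in CPM, the 5 largest called differences between times of each sign, up to 3 called rises and falls in each list, genes of the pathway and of monocytes (Nfam1, Ifngr1, Ifngr2, Jak1, Jak2, Irf1, Socs1, Ciita, Nlrc5, Cd40, Traf1, Traf3, Map3k14, Nfkb1, Nfkb2, Relb, Nfkbia, Tnf, Il12b, Cxcl9, Cxcl10, Nos2, Ccr2, Cx3cr1 and Csf1r) and 4 reference genes. Some genes that these rules select are not reported here. The members, gene lists and rules were chosen with earlier results of these data known. Alternatives covered the filter, the scaling, the genotype term, the prior, weights, thresholds and left-out libraries. Lists are described by counts and medians with no test.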

Additional observations from a re-analysis of the deposited data

Results flagged for a closer look

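Single libraries stood apart from the other 3 of their group in 18 of 330 groups of 4 examined, where chance alone gives about 1 in 20. Of these, 6 were of stimulated library 26. It was above the range of the others for A630012P03Rik (37.6 CPM against 20.2 to 21.9), Nlrc5 (2080 against 1756 to 1792), Pfkfb3 (699 against 416 to 448) and Ccnd2 (598 against 329 to 362), and below it for Deptor (0.301 against 1.14 to 1.24) and Iigp1 (2199 against 2849 to 3005). Among the other stimulated libraries, Actb was low in library 10 (15091 CPM against 16698 to 17010), Rps6ka2 in library 12 (1.19 against 1.87 to 1.95) and Ctsf in library 11 (0.105 against 0.273 to 0.301).

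Among unstimulated libraries, library 2 was low for F830016B08Rik (0.00802 CPM, which stands for no read, against 0.0830 to 0.0930) and P2ry14 (0.521 against 1.09 to 1.21), and its value of A630012P03Rik (0.00802) differs from the others only by its depth, since none of the 4 libraries had a read. Library 4 was low for Gm5970 (0.0219 CPM against 0.0392 to 0.0401), Cxcl10 (14.5 against 27.0 to 27.6) and Trem1 (27.8 against 36.9 to 39.1). Library 1 was low for Fcgr4 (5.55 CPM against 7.86 to 8.27), and library 3 was high for F630028O10Rik (184 CPM against 136 to 140) and Ctsc (1058 against 827 to 861).

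Under the deposited scaling, the response to the stimulus differed between 6 and 24 h in the test of the interaction for many genes. It was higher at 24 h for 1687 genes and lower at 24 h for 2313. Among genes with a mean of at least 10 CPM, the difference in log2 fold change was 11.72 for Pgc, 5.66 for Ip6k3, 5.19 for Susd2, 4.99 for H2-Q6 and 4.91 for Marveld1, and -6.26 for Spp1, -6.34 for Ifnb1, -6.36 for F13a1, -6.46 for Fn1 and -7.16 for Itga6.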

How the results depend on the processing

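Against 2367 genes called higher and 2433 called lower at 6 h, own-total scaling of the libraries gave 1517 and 5204, dropping the minimum fold change gave 4348 and 5247, a minimum mean of 5 CPM gave 1482 called lower, and the treat test of limma at a minimum of 2-fold gave 1469 called lower. For the difference between times, 1687 genes were higher and 2313 lower at 24 h. These became 3234 and 1548 with own totals, and 4335 and 3929 with no minimum fold change. In both cases the direction with more genes changed. A minimum mean of 5 CPM gave 1469 lower. With 1 library left out, the counts were 2278 to 2380 higher and 2372 to 2483 lower at 6 h, and 1611 to 1732 and 2236 to 2329 for the difference. The other counts stayed within 1.5 times. No gene called at 6 h was called in the opposite direction under any alternative, and of 4800 called genes 4352 kept their call with the NFAM1+/+ libraries alone, 4323 with the NFAM1-/- libraries alone and 4767 with voom weights. Leaving out libraries 4 and 12, libraries 3 and 11, or the genes of the stomach read pattern was chosen after seeing the data.

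Signs turned with own totals for Jak1 (-0.11), Traf3 (-0.30), Relb (-0.22) and Ppia (-0.67), with quantile normalization for Jak1 (-0.25), Traf3 (-0.10), Nfkb2 (-0.059), Relb (-0.18) and Ppia (-0.98), and with median centring for Gapdh (0.13). They also turned for Ppia in NFAM1+/+ libraries alone (-0.029), and for Gapdh in NFAM1-/- libraries alone (0.026) and without stimulated library 26 (0.0029), while its range with 1 library left out began at -0.065. None of these values was called. Of the other values of named genes, 48 lost the call, 16 gained it and 4176 changed neither. Of the list medians 82 moved by more than their spread and 204 did not. The cause of these changes was not tested, apart from the smaller or larger number of genes that a filter or threshold admits by its construction.

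No paired analysis was possible because no label ties a library of 1 group to a library of the other. Libraries 3 and 11, and 4 and 12, had like levels of some markers of other cells, and whether they share an animal was not tested. Depth limited genes with few reads in 1 group, whose fold changes rest on the 0.5 read added.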

Other observations

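Families of genes that share the letters of their symbol were chosen after their values were seen. They overlap the lists of the report in part, since Ifi44 is an Ifi gene and was named among the antiviral genes. Of 191 such families with at least 8 tested genes, the Schlafen genes rose in 8 of 8 cases with a median log2 fold change of 5.38, Slfn4 going from 13.5 ± 2.50 to 873 ± 284 CPM (5.98 ± 0.17), and the Ifi genes in 16 of 17 with a median of 4.96. The Ms4a membrane genes were called higher in 8 of 11 cases, while Ms4a4a fell from 124 ± 10.8 to 13.4 ± 2.56 CPM (-3.23 ± 0.13). The Zfp genes, most of which encode zinc finger proteins, were called lower in 75 and higher in 17 of 283 cases, with a median of -0.52. These counts stand beside 19.5% of all genes called higher and 20.1% called lower, no set was tested, and other scalings were not applied to these medians.

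Genes with the symbols Nop, Rrp, Utp, Nol and Exosc, many of which serve ribosome assembly, were also chosen after their values were seen. Members were taken by symbol alone, and their roles were not checked. Of 43 tested, none was called higher and 25 (58.1%) were called lower, 18 of them under all 4 scalings, with a median of -1.10. Stimulated libraries lay below all unstimulated ones for 37 of the 43, above them for 3 and overlapped for 3. Over all genes tested, they lay below for 40.4% and above for 33.7%. Rrp12 went from 16.6 ± 1.004 to 2.24 ± 0.491 CPM (-2.92 ± 0.16), Rrp1b from 15.6 ± 0.973 to 1.64 ± 0.598 CPM (-3.31 ± 0.21) and Nop56 from 59.7 ± 3.80 to 22.6 ± 0.874 CPM (-1.40 ± 0.06).

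Markers of other blood cells and of stroma differed between libraries within a group. The eosinophil granule gene Prg2 was at 33.4, 33.7, 5.97 and 29.8 CPM in unstimulated libraries 1 to 4 and at 49.1, 39.1, 7.06 and 51.4 CPM in stimulated libraries 26, 10, 11 and 12, so that libraries 3 and 11 held the lowest levels. S100a9 of neutrophils was lowest in the same libraries, at 56.04, 57.8, 22.6 and 74.1 CPM and 129, 76.2, 27.6 and 115 CPM in the same order. Col1a1 was at 0.146, 0.361, 2.25 and 16.8 CPM and 0.155, 1.59, 0.946 and 18.2 CPM, with libraries 4 and 12 the highest. Without libraries 3 and 11 there were 2344 genes called higher and 2427 called lower. Kdr, an endothelial receptor gene, was at 0.341, 0.136, 0.283 and 0.406 CPM in unstimulated and at 88.8, 37.9, 30.5 and 39.7 CPM in stimulated libraries, while Cdh5, also endothelial, was at most 2.60 CPM.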
